A study of Sus scrofa with 36 samples.

Results

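The genes described here belong to name families of pre-mRNA splicing factors and were measured in the hippocampus of young piglets. They were chosen by name: every gene whose single annotated symbol starts with SRSF, SNRP, HNRNP, SF3, PRPF, LSM or U2AF, with the probe set of highest mean over all 36 arrays standing for a gene that has several. The rule gave 62 genes out of 6765 named genes on the array. They were covered by 97 probe sets, and 21 of them had more than 1. All 62 chosen probe sets passed the filter on low signal, so no member was lost before testing. The 36 samples came from male Landrace × Large White piglets that entered the study at 3 days of age and were sampled on postnatal day 38. The control group of 12 received pig milk replacer with its basal level of lactoferrin, the medium dose group of 12 received 0.6 g/L and the high dose group of 12 received 1.2 g/L. Lactoferrin is an iron-binding glycoprotein of milk. Each sample was 1 Affymetrix porcine array, and a set code (S1 to S5) in each sample's description, whose meaning is not given in the sources used here, was spread unevenly: S1 held no medium dose sample. The labels number the samples 1 to 12 in each group and do not say outright that each came from its own animal, so the p-values measure the spread between these samples.

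Splicing removes introns from pre-mRNA and joins exons. It is carried out by the spliceosome, a machine built from small nuclear ribonucleoproteins (snRNPs), each a short nuclear RNA wrapped in a ring of Sm or Lsm proteins with further proteins bound. SR proteins and hnRNP proteins bind the pre-mRNA and promote or repress the use of particular exons, and neurons rely on this choice more than most cells do. An array of this kind reads the level of each factor's RNA and not the splicing it carries out.

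By role, the 62 genes fell into 7 name families. The SR proteins, which bind exonic enhancers, numbered 11 (SRSF1, SRSF2, SRSF3, SRSF4, SRSF5, SRSF6, SRSF7, SRSF9, SRSF10, SRSF11 and SRSF12). The snRNP proteins of the SNRP prefix numbered 10 (SNRPA, SNRPA1, SNRPB, SNRPB2, SNRPC, SNRPD1, SNRPD3, SNRPF, SNRPG and SNRPN). The Lsm genes numbered 6 (LSM2, LSM3, LSM6, LSM7, LSM12 and LSM14A), some of which form the ring of the U6 snRNP. The U2AF prefix gave U2AF2, the large subunit that reads the polypyrimidine tract, and its relative of the small subunit, U2AF1L4. The SF3 genes, whose proteins belong to the U2 snRNP that recognises the branch point, numbered 7 (SF3A1, SF3A3, SF3B1, SF3B2, SF3B4, SF3B5 and SF3B6). The PRPF genes, whose products act in the assembly and activation of the spliceosome, numbered 9 (PRPF3, PRPF4, PRPF4B, PRPF18, PRPF19, PRPF31, PRPF38A, PRPF38B and PRPF39). The hnRNP genes numbered 17 (HNRNPA1, HNRNPA2B1, HNRNPA3, HNRNPAB, HNRNPC, HNRNPD, HNRNPDL, HNRNPF, HNRNPH1, HNRNPH2, HNRNPH3, HNRNPK, HNRNPL, HNRNPM, HNRNPR, HNRNPU and HNRNPUL1).

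Most splicing factor genes varied little from array to array. The deposited values are log2 signals rounded to 1 decimal, and a member took a median of 6.5 distinct values over 36 arrays (4 to 13). The SD over the 36 arrays had a median of 0.134 on the log2 scale over the 62 members, beside 0.175 over all 18006 probe sets tested, and 27 members spanned 0.5 or less. A member is its gene's probe set of highest mean, while the 18006 reach down to a mean of log2 4.92. The 2 sets were thus not matched on signal, and its part in the SDs was not tested. The smallest SD was that of SF3A3, at 0.0732. The 6 largest were those of HNRNPL (0.468), HNRNPU (0.326), HNRNPDL (0.218), LSM6 (0.214), SNRPD1 (0.201) and SRSF6 (0.197). HNRNPL encodes a protein that binds CA-rich RNA, HNRNPU a nuclear scaffold protein that binds RNA and DNA, and SNRPD1 a protein of the Sm ring.

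HNRNPL owed its spread to a gap. No array had a value between 9.2 and 9.6, with 8 arrays below the gap and 28 above it. The 8 low arrays comprised 2 controls, 3 medium dose samples and 3 high dose samples, and lay in set codes S2 (2), S3 (2), S4 (3) and S5 (1). The lowest, median and highest HNRNPL values were 8.8, 9.8 and 10.2 in controls, 8.5, 9.7 and 10.2 in medium dose samples and 9.0, 9.8 and 10.2 in high dose samples. Low arrays thus occurred in every feeding group, and the groups overlapped. Among the other probe sets of members, the second probe set of SNRPA1, which encodes a protein of the U2 snRNP, had a gap too and was picked out after its values were seen: 3 arrays, 1 from each group, read 4.5 to 4.6, and the other 33 read 5.6 to 6.9. The cause of either gap was not tested.

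**Figure D1:**
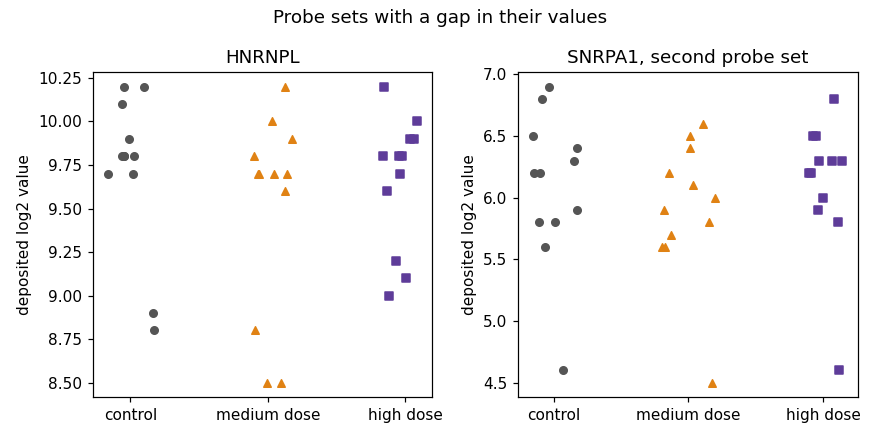
Deposited log2 values of HNRNPL (left) and of the second probe set of SNRPA1 (right), 1 point per array, for 12 control, 12 medium dose and 12 high dose samples with small sideways offsets. Both panels show an empty stretch, from 9.2 to 9.6 for HNRNPL and from 4.6 to 5.6 for SNRPA1, with arrays of every group on each side.

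The first question of the design is whether added lactoferrin changed these genes. With set code as a block, limma called 0 of 62 members at an adjusted p under 0.05 when the medium dose, and likewise the high dose, was set against controls, or the high against the medium dose (called among all 18006 probe sets: 0%, 0% and 0%). The smallest adjusted p of a member was 0.54, 0.976 and 0.811 in the 3 contrasts. At an unadjusted p under 0.05 the medium dose contrast held 2 members against 6.93% of all probe sets, the high dose contrast 4 against 4.94%, and high minus medium 2 against 5.98%, so the members' shares were close to or below the background. Both dose contrasts share the same 12 controls.

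The intervals were narrow. The 95% interval of the log2 difference lay within 0.32 of 0, which is a 1.25-fold change, for 60 of 62 members at the medium dose and 59 of 62 at the high dose. Intervals reaching further were those of HNRNPL and HNRNPU at both doses and, at the high dose, also HNRNPH1, which binds runs of G. Estimates ran from -0.20 to 0.17 for the medium dose and from -0.18 to 0.12 for the high dose. Their median was -0.02 for the medium dose and -0.04 for the high dose, beside 0.00 over all probe sets for each, and 43 and 39 of the 62 were below 0. Above 0 were 30.6% of members for the medium dose, beside 50.3% of all probe sets, and 37.1% for the high dose, beside 49.7%. By family, the estimates below 0 for the medium dose numbered 10 of 11 for SRSF, 14 of 17 for HNRNP, 7 of 9 for PRPF, 5 of 10 for SNRP, 3 of 7 for SF3 and 3 of 6 for LSM. For the high dose they numbered 9 of 11 for SRSF, 15 of 17 for HNRNP, 5 of 9 for PRPF, 4 of 10 for SNRP, 3 of 7 for SF3 and 3 of 6 for LSM. These counts describe the estimates, and differences between families were not tested. Control replicate 10, which alone held the highest value of 10 members, belongs to the controls of both contrasts. Its part in the counts was not tested.

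**Figure D2:**
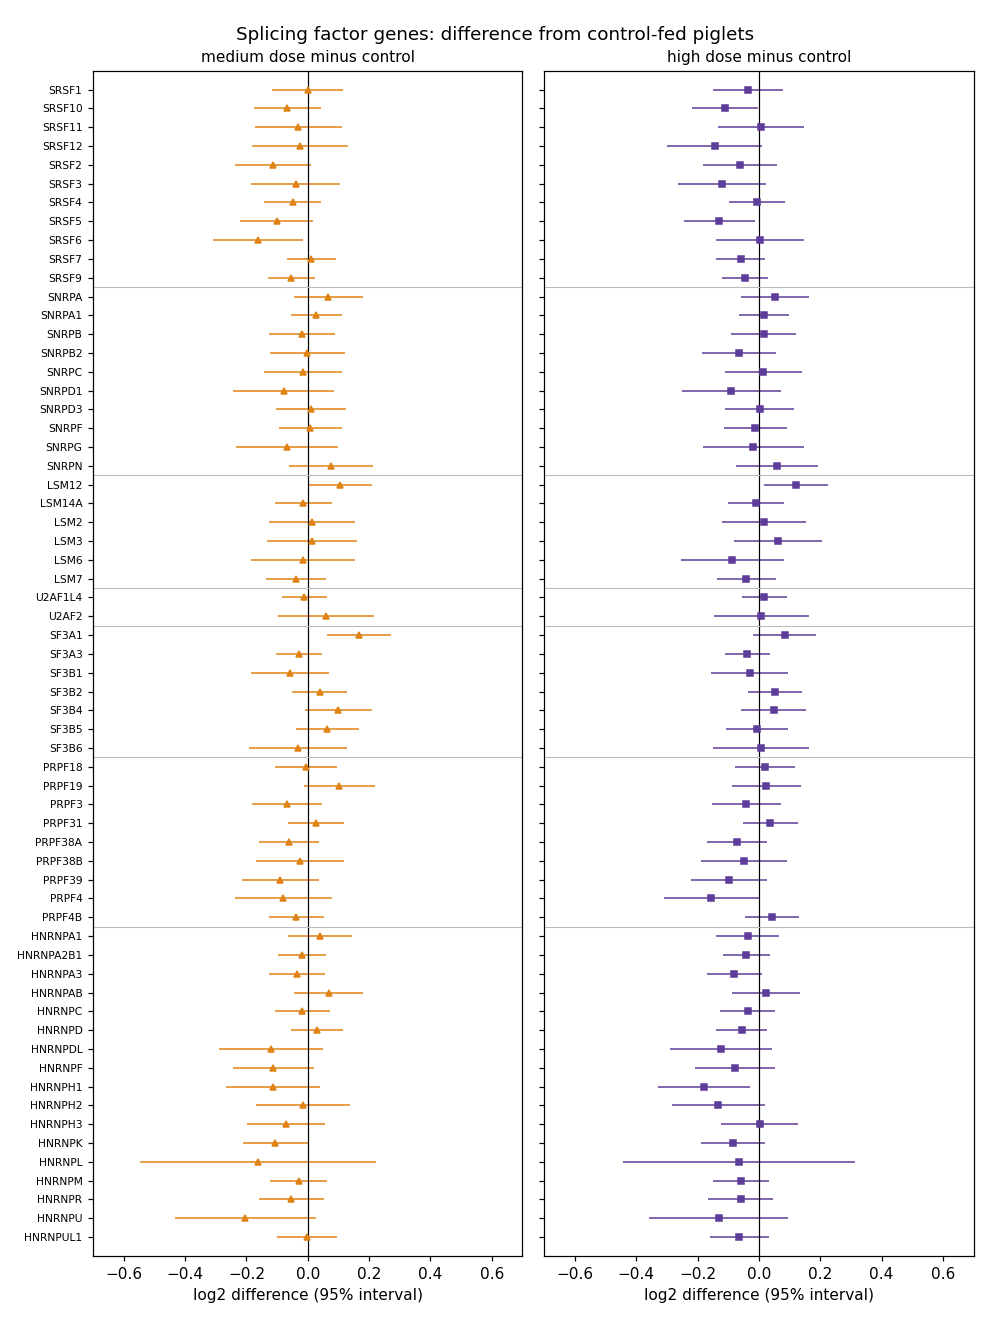
Log2 difference from controls with its 95% interval for each of the 62 genes (rows, grouped by family with grey lines), medium dose minus control on the left and high dose minus control on the right; n = 12 per group, limma with set code as a block. Nearly all points lie within 0.2 of 0, and the widest intervals are those of HNRNPL and HNRNPU.

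The 10 members of smallest p at the medium dose did not pass adjustment. SF3A1, a subunit of the U2 snRNP, had a lowest, median and highest value of 9.3, 9.5 and 9.6 in medium dose samples, against 9.1, 9.3 and 9.5 in controls. The groups overlapped, though 10 of 12 medium dose samples lay above the control median and 2 equalled it. The log2 difference was 0.17 (SE 0.05, 95% interval 0.06 to 0.27), with an unadjusted p of 0.00282 and a limma adjusted p of 0.54. Within set codes, the SF3A1 mean was higher in medium dose samples throughout, by 0.35 (S2), 0.10 (S3), 0.07 (S4) and 0.15 (S5).

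SRSF6, an SR protein, had 8.6, 9.1 and 9.3 in medium dose samples, against 8.9, 9.15 and 9.6 in controls, a log2 difference of -0.16 (SE 0.07, unadjusted p 0.0305, limma adjusted p 0.669). Other tested probe sets of SRSF6 differed by -0.08, -0.06, -0.05 and -0.01 (limma unadjusted p 0.242 to 0.880). Only 7 of 12 medium dose samples were below the control median of SRSF6 on the chosen probe set. The other 8 had unadjusted p-values above 0.05. Their log2 differences were 0.10 for LSM12, an Lsm-domain protein, 0.10 for SF3B4 of the U2 snRNP and 0.10 for PRPF19, the core of the complex that activates the spliceosome. The differences below 0 were -0.11 for HNRNPK, a binder of C-rich RNA, -0.11 for SRSF2, -0.11 for HNRNPF, -0.10 for SRSF5 and -0.20 for HNRNPU.

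At the high dose the member of smallest p was HNRNPH1. Its lowest, median and highest values were 9.5, 10 and 10.2 in high dose samples, against 10, 10.05 and 10.6 in controls, a log2 difference of -0.18 (SE 0.07, unadjusted p 0.0213, limma adjusted p 0.976). The groups overlapped, with 8 of 12 high dose samples below the control median and 4 above it. The control value of 10.6 was that of control replicate 10, and the estimate without that array was not examined. LSM12 had 7.3, 7.6 and 7.8 in high dose samples, against 7.4, 7.5 and 7.6 in controls, a log2 difference of 0.12 (SE 0.05, unadjusted p 0.0225). Here 7 of 12 high dose samples exceeded the control median of LSM12, 4 equalled it and 1 was below.

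SRSF5 read 9.8, 10.1 and 10.4 in high dose samples, against 10, 10.25 and 10.6 in controls, a log2 difference of -0.13 (SE 0.06, unadjusted p 0.0324). SRSF10, an SR protein that represses splicing when dephosphorylated, read 8.2, 8.4 and 8.6 in high dose samples, against 8.3, 8.5 and 8.7 in controls, a log2 difference of -0.11 (SE 0.05, unadjusted p 0.0462). Both pairs of groups overlapped over most of their range. Other tested probe sets of SRSF10 differed by 0.06, -0.08 and -0.03 (limma unadjusted p 0.242 to 0.618). The rest of the 10 of smallest p had unadjusted p-values above 0.05, with log2 differences of -0.15 for PRPF4 of the U4/U6 snRNP, -0.14 for SRSF12, -0.08 for HNRNPA3, -0.13 for HNRNPH2, -0.12 for SRSF3 and 0.08 for SF3A1.

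Between the doses, SRSF6 was higher at the high dose by 0.17 on the log2 scale (SE 0.07, unadjusted p 0.0269, limma adjusted p 0.811) and HNRNPD, which binds AU-rich RNA, differed by -0.08 (SE 0.04, unadjusted p 0.0493). On its other tested probe sets SRSF6 differed by 0.04, 0.04, 0.03 and 0.01 (limma unadjusted p 0.435 to 0.927). SRSF6 exceeded the medium dose median in 9 of 12 high dose samples on the chosen probe set. The next 8 by p, all above 0.05 unadjusted, had log2 differences (high minus medium) of -0.07 for SRSF7, 0.08 for PRPF4B, a kinase of spliceosomal proteins, -0.08 for SF3A1, -0.12 for HNRNPH2, -0.12 for SRSF12, -0.08 for HNRNPA1, -0.08 for PRPF19 and -0.07 for SF3B5.

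Several widely studied factors had small differences from controls. HNRNPA2B1, a regulator that also carries RNA in neurons, had 12.0, 12.2 and 12.3 in controls, 12.0, 12.1 and 12.3 in medium dose samples and 12.0, 12.1 and 12.3 in high dose samples. SRSF1, the founding SR protein, had a median of 9.9 in each of the 3 groups, with log2 differences of 0.00 for the medium dose and -0.04 for the high dose. U2AF2 had differences of 0.06 and 0.01, SF3B1 of -0.06 and -0.03, and SNRPB of -0.02 and 0.02, in the same order. SNRPN had differences of 0.07 and 0.06, and HNRNPA1 of 0.04 and -0.04. None of these passed the test in any feeding contrast, and U2AF1 and PRPF8 were not analysed here.

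Markers of other cell types moved with the groups in places. The mean of 14 oligodendrocyte and myelin markers was 10.15 ± 0.155 in medium dose samples, against 10.37 ± 0.305 in controls (SD, n = 12 each), and 10.37 ± 0.338 in high dose samples. The 8 microglia markers all had estimates below 0 in both dose contrasts, with medians of -0.21 for the medium dose and -0.20 for the high dose. At an unadjusted p under 0.05 were 4 of them for the medium dose and 3 for the high dose. Among all probe sets those shares were 6.93% and 4.94%. The mean of the 8 microglia markers ran from 8.14 to 9.275 in controls (median 8.44), where control replicate 9 held the highest value. It ran from 7.925 to 8.675 in medium dose samples (median 8.24) and from 8.1 to 8.49 in high dose samples (median 8.32). The same controls serve both contrasts. The 8 endothelial markers were all above 0 at the high dose, with a median of 0.10 and 2 at an unadjusted p under 0.05, and 5 of 8 were above 0 at the medium dose. No marker of these 3 lists passed adjustment in a feeding contrast. With the oligodendrocyte mean as a covariate 0 members were called, as without it, and the part of microglia and endothelial markers in the estimates was not tested. In tissue RNA, fewer cells of a type and less RNA per cell cannot be told apart.

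Other genes of the splicing pathway were read from lists chosen with earlier results of these data known. None of 37 further spliceosome genes, 28 regulators of alternative splicing, 10 kinases and phosphatases of SR proteins, 8 exon junction complex genes or 14 snRNP assembly genes passed adjustment in a feeding contrast. Of the 10 kinases and phosphatases, 5 were above 0 at each dose, with a median of 0.00 for each. The 2 of smallest p, CLK1 and CLK4, which phosphorylate SR proteins, had log2 differences of -0.22 (unadjusted p 0.0104) and -0.16 (0.0472) at the medium dose and of -0.21 (0.0161) and -0.24 (0.00447) at the high dose. Both contrasts rest on the same controls. Of all probe sets, 50.3% were above 0 for the medium dose and 49.7% for the high dose. Of the regulators, 20 of 28 were below 0 for the medium dose and 22 of 28 for the high dose, where TRA2A (-0.15), TRA2B (-0.14) and MATR3 (-0.14) had the smallest p-values. At the medium dose the smallest were those of RBMX (-0.14), QKI (-0.19), a regulator known from oligodendrocytes, and RBM5 (-0.11).

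No gene of the other pathway lists passed adjustment either. The shares of all probe sets above 0, 50.3% and 49.7% for the medium and high dose, apply here too. Of the further spliceosome genes, 16 of 37 were above 0 for the medium dose, led by ZMAT2 (0.10), SNRNP40 (0.10) and LUC7L3 (-0.14), and 13 of 37 for the high dose, led by PLRG1 (-0.11), SNRNP200 (-0.07) and BUD13 (0.07). Of the snRNP assembly genes, GEMIN5 (-0.12), PRMT5 (0.09), the enzyme that methylates Sm proteins, and CLNS1A (-0.08) led at the medium dose, and PRMT5 (0.10), GEMIN2 (-0.08) and PHAX (-0.10) at the high dose. Between the doses, SF1, which binds the branch point before the U2 snRNP, differed by 0.48 (high minus medium, SE 0.18, unadjusted p 0.0131, limma adjusted p 0.811).

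Set code gave calls where feeding gave none. An F test over the 5 codes, with feeding group in the model, called 3 of 62 members at an adjusted p under 0.05, against 2.62% of all probe sets, and 18 (29.0%) at an unadjusted p under 0.05, against 17.4%. The 3 were SF3B1 (limma adjusted p 0.0384), the branch-point factor of the U2 snRNP, SRSF2 (0.0487) and SRSF7 (0.0488), both SR proteins. HNRNPF (0.0932) and HNRNPU (0.114) came next and did not pass.

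SF3B1 averaged 10.125 ± 0.222 in S1 (SD, n = 4), 10.3 ± 0.163 in S2 (n = 10), 10.325 ± 0.139 in S3 (n = 8), 10.467 ± 0.1 in S4 (n = 9) and 10.12 ± 0.11 in S5 (n = 5). SRSF2 averaged 10.45, 10.69, 10.65, 10.789 and 10.52, and SRSF7 10, 10.19, 10.1625, 10.2 and 10.02, in S1 to S5. All 3 were thus lowest in S1 and S5 and highest in S4. The second probe set of SF3B1 did not have that order: it averaged 7.025 in S1, 6.8 in S3 and 7.11 in S4 (unadjusted p 0.00862, limma adjusted p 0.128).

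These calls were near the threshold. Of the 36 fits that each left out 1 array, SF3B1 was called in 23, SRSF7 in 7 and SRSF2 in 6. A contrast of S4 and S5 against S1 to S3 called 0 members, against 0.566% of all probe sets, and 3 at an unadjusted p under 0.05, against 6.7%. Its smallest p-values were those of HNRNPM (log2 difference -0.10), SF3A1 (-0.11), SRSF6 (0.14), SNRPA (-0.10) and HNRNPA2B1 (-0.06), with unadjusted p from 0.0175 to 0.0637. On the other tested probe sets of SRSF6 that difference was 0.016, -0.001, -0.023 and -0.024. The test of whether feeding differences varied with set code called 0 members, against 0.0167%, and 1 at an unadjusted p under 0.05, against 6.92%. SNRPB2, a protein of the U2 snRNP, had the smallest unadjusted p, 0.0491, followed by HNRNPUL1 (0.0863), SNRPD3 (0.0891), PRPF38B (0.101) and SRSF5 (0.102).

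**Figure D3:**
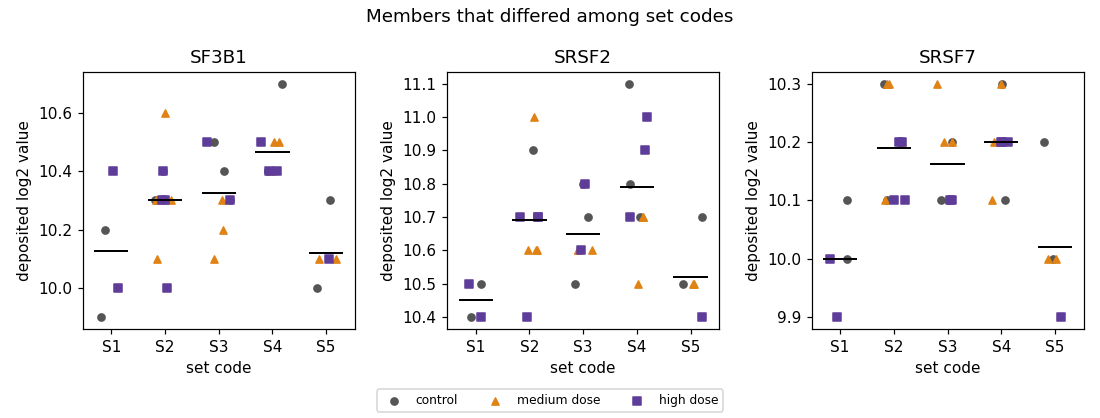
Deposited log2 values of SF3B1, SRSF2 and SRSF7 by set code S1 to S5, 1 point per array with small sideways offsets, with symbols for the control, medium dose and high dose groups and a black line at each code's mean. The means of S1 and S5 lie below those of S2, S3 and S4 for each gene, with the points of neighbouring codes overlapping.

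Part of the variation followed marker genes of cell types. The mean of 10 neuron markers ran from 10.06 to 11.11 over the arrays, and the relation of every probe set to it was fitted with feeding group and set code in the model, a test added after the data were seen. It called 19 of 62 members, 3 higher and 16 lower with more neuron signal, against 31.9% of all probe sets (16.4% higher and 15.5% lower). The total was close to the background, and the members called lower made up 25.8% of the 62.

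SNRPN rose most steeply with the neuron mean. It encodes SmN, an imprinted Sm protein abundant in brain that takes the place of SmB. Its slope was 0.70 log2 per log2 unit of the neuron mean (SE 0.08, limma adjusted p 1.44e-07). Over 36 arrays Pearson r was 0.892 (permutation p 1e-05, the smallest that 100000 resamples can give) and Spearman rho 0.657 (permutation p 3e-05). The permutation p of r was 8.5e-05 after adjustment over the 34 relations that the slope tests had already called on these arrays. Coming from those calls, the permutation p-values of the 34 add no separate support, and the resampling ignored feeding group and set code. Leaving out the pair of arrays farthest from the median neuron mean gave r 0.771. Within set codes S2, S3 and S4, r was 0.961, 0.546 and 0.722.

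The 4 arrays with the lowest neuron means had SNRPN values of 11.5 (high dose replicate 2), 11.8 (control replicate 4), 11.8 (medium dose replicate 1) and 11.9 (control replicate 10). The array with the highest neuron mean, high dose replicate 1, had 12.3. The second probe set of SNRPN gave a slope of 0.62 and correlated with the first at r 0.894. SNRPB, which encodes SmB, had a slope of -0.30 (SE 0.10, limma adjusted p 0.0228), but of -0.11 without high dose replicate 2, and rho was -0.227 (permutation p 0.18), so the SNRPB slope rests largely on that array.

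Members of the hnRNP H and F group, which bind runs of G, went opposite ways. HNRNPH2 rose with the neuron mean, with a slope of 0.60 (SE 0.13, limma adjusted p 0.000502, r 0.487), and its second probe set had a slope of 0.82 (adjusted p 0.00556). HNRNPH3 fell, with a slope of -0.56 (SE 0.10, adjusted p 3.73e-05, r -0.792), and so did HNRNPF, with a slope of -0.51 (SE 0.11, adjusted p 0.000591, r -0.679). HNRNPH3 read 9.9 on the array of lowest neuron mean and 9.4 on that of highest, where HNRNPH2 read 8.9 and 9.4. Within S2, S3 and S4, r was 0.682, 0.171 and 0.697 for HNRNPH2, -0.933, -0.255 and -0.569 for HNRNPH3, and -0.639, -0.202 and -0.525 for HNRNPF. Spearman's rho over all arrays was 0.488 for HNRNPH2, -0.700 for HNRNPH3 and -0.396 for HNRNPF, and the relations were weakest within S3.

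Of the other members called lower, SNRPC, the U1 protein that helps recognise the 5′ splice site, had a slope of -0.63 (SE 0.08, limma adjusted p 9.64e-07, r -0.787). SNRPC read 9.7 on the array of lowest neuron mean and 8.9 on that of highest. For SNRPC, rho was -0.587, r was -0.556 once the 2 arrays farthest from the median were left out, and r within S2, S3 and S4 was -0.734, -0.745 and -0.793. Others of small p were LSM2 (-0.53) and LSM3 (-0.48) of the Lsm ring, PRPF38A (-0.36), SRSF11 (-0.48), SNRPA (-0.36), which encodes a protein of the U1 snRNP, SF3B1 (-0.39) and SRSF2 (-0.36). Without high dose replicate 2 the slope was -0.24 for LSM3 and -0.17 for SNRPA. The remainder had slopes from -0.61 (HNRNPU) to -0.26 (LSM14A), and HNRNPR, at 0.27, was the third called higher. On its other tested probe set HNRNPR had a slope of -0.14 (limma unadjusted p 0.357). Other tested probe sets gave -0.24, -0.29 and 0.12 for SRSF11, -0.22 for SF3B1 and -0.15 for PRPF39.

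**Figure D4:**
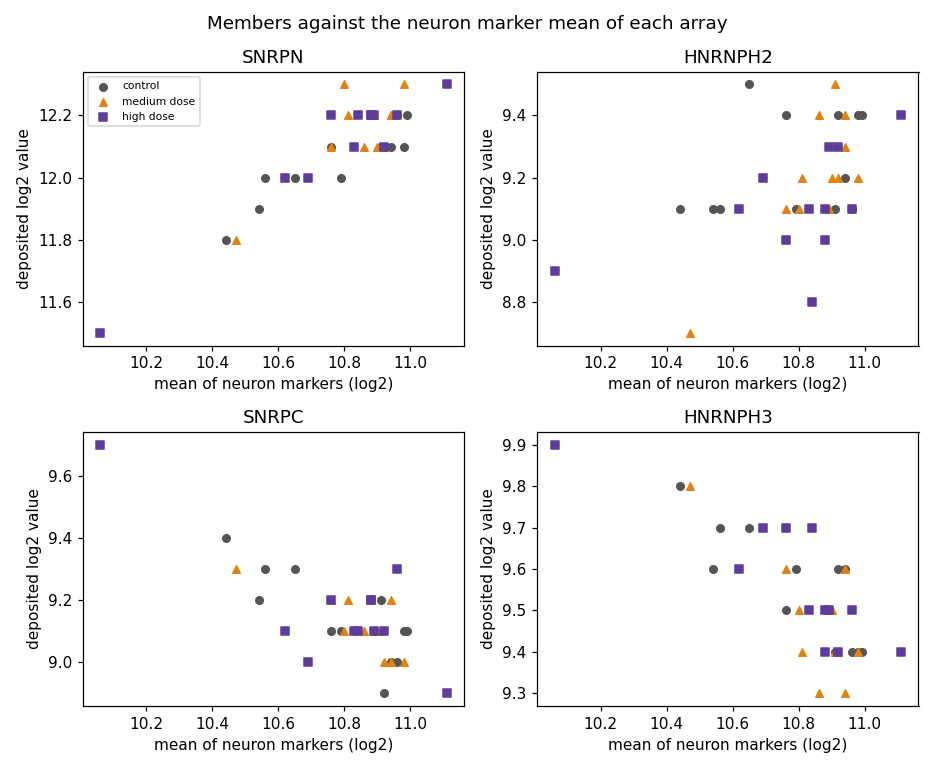
Deposited log2 values of SNRPN, HNRNPH2, SNRPC and HNRNPH3 (vertical axes) against the mean of 10 neuron markers on the same array (horizontal axes, log2), 1 point per array, with symbols for the control, medium dose and high dose groups. SNRPN and HNRNPH2 are higher and SNRPC and HNRNPH3 lower where the neuron mean is higher, and 1 high dose array stands apart at a neuron mean of 10.06.

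Single arrays bore on many of these calls. High dose replicate 2, the array that correlated least with the others (mean r 0.98), alone held the highest value of 14 members, among them SNRPC, LSM2, LSM3 and SNRPA, and the lowest of SNRPN. Control replicate 10 alone held the highest value of 10 members, among them SF3B1, SRSF2, HNRNPH1 and HNRNPDL. Without high dose replicate 2, 7 members were called on the neuron mean in place of 19. Without the 3 arrays of lowest mean correlation (high dose replicate 2, control replicate 10 and control replicate 4) 5 were: SNRPN, SNRPC, HNRNPH3, HNRNPH2 and PRPF38A, each of which was also called in all 36 fits that left out 1 array. Of the 19 slopes, 12 then stayed within 1.5 times their size and 7 became smaller by more than that, among them SNRPD3 (-0.02), LSM3 (-0.13), PRPF39 (-0.11), LSM14A (-0.09) and HNRNPF (-0.26), while SRSF2 was at -0.48 and HNRNPR at 0.37, both without a call. SNRPD3 was at -0.20 without control replicate 4, and HNRNPR at 0.18 without medium dose replicate 1.

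Other pathway genes had slopes on the neuron mean too. CELF4 (0.98) and ELAVL4 (1.12), RNA-binding regulators known from neurons, were higher, and PTBP1 (-0.66), a repressor of neuronal exons that is low in neurons, was lower, each past adjustment. Of all probe sets, 16.4% were called higher and 15.5% lower. Of the 28 regulators, 6 were called higher and 8 lower. Of the 37 further spliceosome genes, 1 was called higher and 9 lower, and of the 8 exon junction genes 2 each way, with UPF3A, a factor of nonsense-mediated decay, at 0.76. The slopes and calls of these pathway genes were not examined without high dose replicate 2.

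The oligodendrocyte marker mean gave the mirror image in part, as its correlation with the neuron mean was r -0.748 (permutation p 1e-05, the smallest possible) and rho -0.601 (permutation p 0.00021) over 36 arrays, r -0.484 once the 2 arrays farthest from its own median were left out, and r -0.706, -0.106 and -0.465 within S2, S3 and S4. It called 13 members, 10 higher and 3 lower, against 27.7% of all probe sets (13.2% higher and 14.6% lower). The 12 of smallest p were SNRPC (slope 0.39), HNRNPF (0.36), HNRNPH2 (-0.41), HNRNPH3 (0.33), SNRPN (-0.34), LSM2 (0.32), SRSF6 (0.32), LSM14A (0.19), LSM3 (0.30), SF3B1 (0.25), SNRPD3 (0.22) and HNRNPR (-0.20), and the other was HNRNPU (0.43). Of these, SRSF6 was not called on the neuron mean. Without high dose replicate 2 the count was 5, and without the 3 arrays named above only HNRNPH2 (limma adjusted p 0.0435) was called. Without high dose replicate 2 the slope was 0.13 for LSM3 and -0.17 for SNRPN. It was 0.12 for SNRPD3 without control replicate 4, and 0.66 for HNRNPU without high dose replicate 1. HNRNPK had a slope of 0.17 on its chosen probe set and of -0.24 on its other, both at an unadjusted p under 0.05. On other tested probe sets the slope was 0.06 for HNRNPR, 0.03 for SF3B1, -0.35 for SNRPN and -0.62 for HNRNPH2. For SRSF6 it was 0.28, 0.28, 0.21 and -0.07.

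RNA integrity was read from the actin control probes as their 3′ signal minus their 5′ signal. The slope on this difference called 2 members, both higher, against 5.62% of all probe sets (1.26% higher): SRSF5 (0.16, SE 0.05, limma adjusted p 0.0366) and SRSF4 (0.13, SE 0.04, adjusted p 0.042). HNRNPDL (0.21), SRSF1 (0.14) and SF3A3 (-0.09) came next and did not pass. Of the 36 fits that each left out 1 array, SRSF5 was called in 29 and SRSF4 in 21, with 0 to 3 members called in all. Of 16 other alternatives, SRSF5 was called in 9 and SRSF4 in 8. Neither was called without the 3 arrays of lowest mean correlation (slopes 0.15 and 0.09, limma adjusted p 0.103 and 0.218). SRSF1 had a slope of -0.28 on another of its probe sets (unadjusted p 0.00868). The feeding estimate of SRSF5 at the high dose, given above, stands beside this relation, whose part in it was not tested.

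Some pairs of members were correlated over the 36 arrays. Of the 1891 pairs, 6.61% had r of 0.5 or more and 1.53% had r of -0.5 or less, beside 3.12% and 2.45% of pairs among all 18006 probe sets. The members' median r was 0.057. These shares are a description of 36 arrays that share feeding groups and set codes. Members and all probe sets were not matched on signal, and high dose replicate 2 alone held the highest value of 14 members. The part of either in the shares was not tested. Pairs named here were picked out after their values were seen, and their permutation p-values are adjusted over the 1891 pairs. The highest was that of HNRNPDL and HNRNPH1 (r 0.871, rho 0.743, adjusted permutation p 0.00079, and r 0.792 once the 2 arrays farthest from the HNRNPH1 median were left out), which held in set codes S2, S3 and S4 at r 0.928, 0.825 and 0.834. HNRNPH2 and HNRNPR followed at r 0.816 (0.953, 0.810 and 0.417 in those codes), and HNRNPDL and SRSF4 at 0.809.

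SF3B1, SRSF2 and HNRNPU formed a trio, with r 0.795 for SF3B1 and SRSF2, 0.776 for HNRNPU and SRSF2 and 0.767 for HNRNPU and SF3B1. After feeding group and set code were taken out, these were 0.664, 0.731 and 0.724, and the rho values of the 3 pairs were 0.774, 0.776 and 0.799. Within S2, S3 and S4, r was 0.900, 0.674 and 0.523 for SF3B1 and SRSF2. SF3B6, whose protein touches the branch-point adenosine, and SNRPG, a protein of the Sm ring, had r 0.776. The most negative pairs all held SNRPN, with PRPF38A (r -0.712), HNRNPH3 (-0.697) and SNRPC (-0.693), for which rho was -0.639, -0.544 and -0.354. The last of these was -0.348 once 2 arrays were left out, so its size rests on them.

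**Figure D5:**
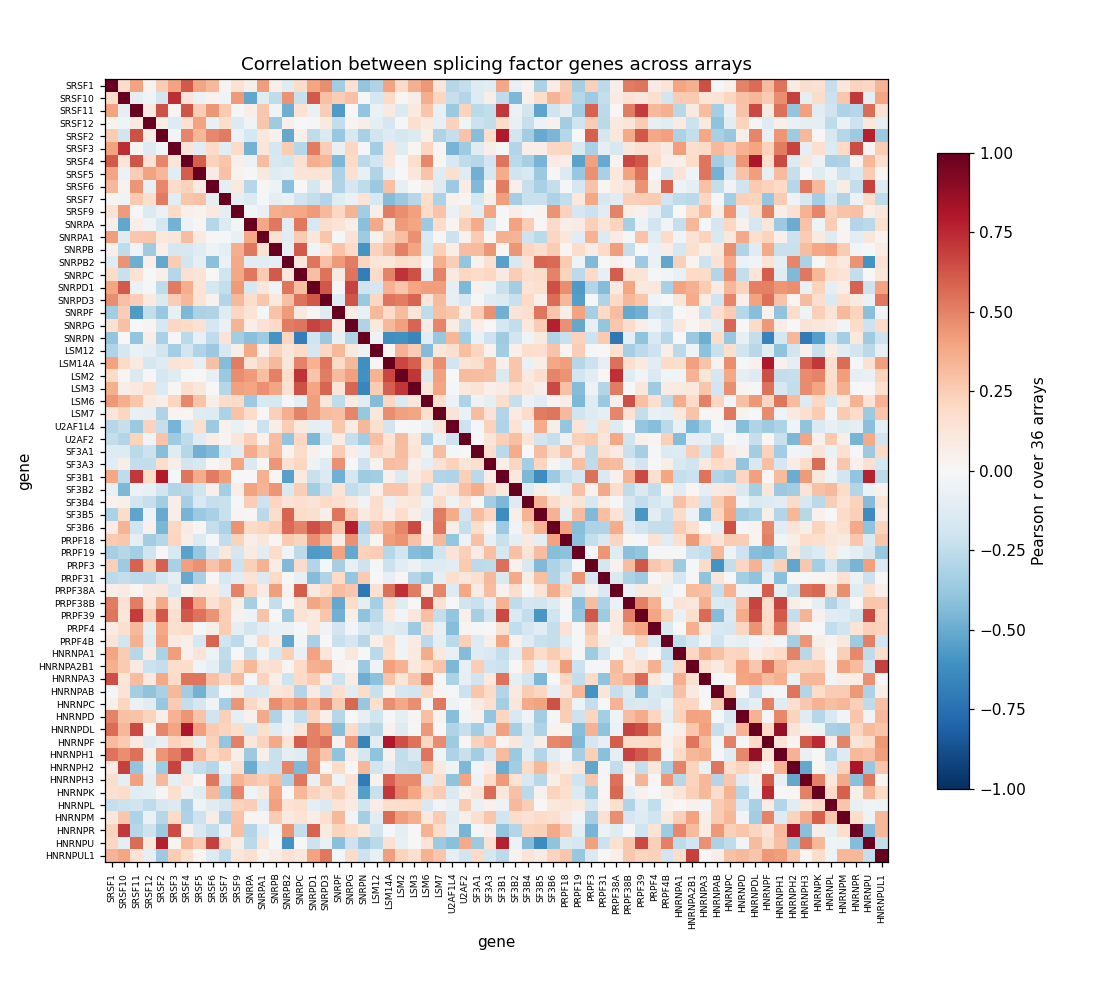
Pearson correlation over the 36 arrays between every pair of the 62 genes, ordered by family from SRSF to HNRNP on both axes, from -1 (blue) to 1 (red). The row of SNRPN is mostly blue, and the LSM2, LSM3 and LSM14A block and the HNRNPDL and HNRNPH1 square are red.

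Probe sets of the same gene agreed unevenly. Of 35 other probe sets of members, 29 passed the filter, and their correlation with the chosen probe set ran from -0.215 (SRSF11) to 0.894 (SNRPN), with a median of 0.267. Only 7 exceeded 0.5. In the feeding contrasts, 21 of 29 had the sign of the chosen probe set for the medium dose, 19 for the high dose and 22 for high minus medium.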

How the data were processed

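RNA of 36 hippocampus samples was measured on Affymetrix porcine arrays. Per the submitters' processing notes the software was Expression Console 1.1 with the RMA method, and the authors deposited its log2 values, which carry 1 decimal. Of 23999 probe sets besides 124 controls, the platform annotation gave 1 symbol to 10069. Probe sets with a mean under the 25th percentile (log2 4.92) were left out, leaving 18006.

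A linear model in limma 3.58.1 (R 4.3.3) held feeding group and set code, with two-sided moderated statistics adjusted by Benjamini-Hochberg over 18006 probe sets at 0.05. Correlations used 100000 resamples (scipy 1.17.1). Each fit was tested on simulated data. The number of arrays limits the precision.

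Members named were the 10 of smallest p per feeding contrast, up to 12 that passed (or the 5 of smallest p) for set code and slopes, the 6 of largest SD, those whose probe sets opposed each other, and a short list of widely studied factors. The members, lists and tests were chosen with earlier results of these data known. Same-numbered samples did not deviate together (median r 0.000608 over 36 pairs, 8 above 0.1), so the numbers were not used as pairs. Alternatives were other filters, blocks, normalisations, array weights, probe set rules, and leaving out each array, each set code or the 3 arrays of lowest correlation. No sequences or coordinates are given.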

Additional observations from a re-analysis of the deposited data

Results flagged for a closer look

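Dixon's test within set codes picked out 1 value among the 3 members that differed by set code. In S4, control replicate 10 had an SF3B1 value of 10.7, where the next highest of the 9 arrays was 10.5 and the lowest 10.4. The test was run on 15 groups of arrays, and chance picks out about 1 in 20. The same array was among the 3 of lowest mean correlation with the others.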

How the results depend on the processing

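The feeding contrasts, the contrast of S4 and S5 against S1 to S3 and the test of feeding by set code called 0 members under every alternative run, leaving out each array included (0 to 0). A replicate block, alone or together with set code, also left 0 members in the feeding contrasts. The set code F test called 3, and 1 with no filter, 1 with the Dap spike-in as a second block, 0 without S1 and 1 without the 3 arrays of lowest correlation (an alternative added after seeing the data). Leaving out single arrays gave 0 to 3, and only the fits without control replicates 4, 6, 8 or 12, medium dose replicates 1, 3 or 10, or high dose replicate 6 kept 2 or more. The oligodendrocyte slope called 13, and 5 with array weights, 6 without S1, 5 without S2, 8 without S4 and 1 without the 3 arrays, where SNRPD3 turned to -0.00905; single arrays gave 5 to 17, the 5 without high dose replicate 2. The actin slope called 2, and 1 with no set block, 1 with no filter, 1 with array weights, 4 counting every probe set, 1 without S1, 0 without S2, S3 or S4 and 1 without S5. Single arrays gave 0 to 3, with 0 without control replicates 1, 4, 5, 6 or 8 or high dose replicate 9, and 1 without control replicates 2, 9 or 10, medium dose replicates 7 or 9, or high dose replicates 3 or 11. The neuron slope called 19, and 9 with array weights, 10 without S1 and 5 without the 3 arrays; single arrays gave 7 to 20, the 7 without high dose replicate 2. The causes were not tested.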
